A study of Homo sapiens with 6 samples.

Results

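CPNE1, the copine genes CPNE2, CPNE3, CPNE7 and CPNE8, and RBM12, which overlaps CPNE1, make up the 6 genes described here, out of 58288 gene identifiers in the deposited table. They were chosen by name, and all 6 passed the filter on low counts that 14415 identifiers passed. The other copine genes were CPNE4 and CPNE6, listed at 0 counts in every library, and CPNE5 and CPNE9, with 34 and 12 counts over all 6 libraries, too few to test.

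The cells were T24, a human bladder cancer cell line. They carried no labelled edit, and were transfected either with a control siRNA (NC) or with 1 of 2 siRNAs, si-circ235-1 and si-circ235-2, both directed at the back-splice junction of circ235, a circular RNA formed from exons of CCNY. The labels name 2 biological replicates of each condition, and the sources used here give neither the siRNA dose nor the time of harvest. Polyadenylated RNA was sequenced without strand information, so circ235, which has no poly(A) tail, has no value in these counts, and the knockdown of the circle could not be checked. The libraries held 15373992 to 19912893 counts, and replicates of each condition differed by more than the sampling noise. KRT7, KRT8 and KRT18, keratins of simple and urinary epithelium, had 619 to 2307 CPM (counts scaled to the size of the library) in every library. UPK3A, a uroplakin of mature urothelium, was listed at 0, and KRT19 had 1 count in all. Of the other genes in this list of 11 epithelial markers, PPARG had 22.6 to 51.1 CPM. EPCAM reached at most 2.93 CPM, GATA3 1.12, UPK1B 0.670, UPK2 0.614 and CDH1 0.287. Of 3 mesenchymal markers, VIM had 499 to 1499 CPM, CD44 595 to 1165 and CDH2 3.91 to 7.85. Of 9 markers of leukocytes, endothelium and smooth muscle, 4 were listed at 0. The summed level of these 9 was 3.42 to 3.54 CPM in NC, 12.1 to 12.6 in si-circ235-1 and 3.25 to 3.39 in si-circ235-2, most of it from CD14. The study picked CPNE1 for follow-up from these same libraries, after qRT-PCR of changed genes, and from a predicted site for miR-330-5p. The fall of CPNE1 in these counts is thus not independent evidence. By qRT-PCR with si-circ235-1, the study kept genes significantly decreased in its bladder cancer cells, and CPNE1 was among those taken forward. The study also reported lower CPNE1 protein in T24 and UMUC3 cells after knockdown of circ235, using the siRNA with the stronger knockdown. That siRNA was si-circ235-1 as well. With it, CPNE1 RNA was not past the threshold here (adjusted p = 0.460 from edgeR), and protein has no value in these counts. With circ235 overexpressed, the study found more CPNE1 protein in T24 cells only, and a miR-330 inhibitor restored the protein after knockdown.

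Copines are soluble proteins that bind phospholipid membranes when calcium rises, through a pair of C2 domains, and carry a von Willebrand factor A domain that can hold other proteins. CPNE1 has been tied to AKT signaling, glucose uptake and NF-kB. CPNE3 is known as a partner of the receptor ERBB2 and of the scaffold RACK1 in cell migration. RBM12 encodes a nuclear protein with RNA recognition motifs and is not a copine.

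The copines past the threshold against NC differed between the siRNAs. With si-circ235-2, CPNE1 fell to 0.337 of its NC level and CPNE3 rose. With si-circ235-1, CPNE2 alone passed it, as a fall whose call was lost whichever NC or si-circ235-1 library was left out. Of all tested genes, 2.24% passed it as higher and 3.64% as lower with si-circ235-1, and 15.7% in each direction with si-circ235-2. The fall of CPNE1 was not shared by RBM12, whose transcripts start at the same place, and the difference between the siRNAs was itself past the threshold for CPNE1, CPNE2 and CPNE3. A gene is said to be called where its adjusted p (Benjamini-Hochberg, over all 14415 genes) from the quasi-likelihood test of edgeR was under 0.05.

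CPNE1 (ENSG00000214078.12) lies on the minus strand of chr20:35626031-35664956 in GRCh38. RBM12 (ENSG00000244462.7) lies on the same strand at chr20:35648925-35664956, inside the span of CPNE1 and with the same 5′ end. In GENCODE release 29, 19 of 28 CPNE1 transcripts and 6 of 6 RBM12 transcripts start within 150 bases of that end. The genes share 575 bases of exon, all within 11.4 kb of that end. They are 15.9% of the 3608 exonic bases of CPNE1 and 8.58% of the 6702 of RBM12. Part of the shared bases lies inside the long last exon of RBM12, which runs from 9.61 to 16.0 kb. Beyond the shared bases CPNE1 splices on to exons that begin 32.0 kb from the shared 5′ end. Another annotated gene, AL109827.1, has all of its 872 exonic bases inside other genes and was listed at 0 in all 6 libraries. Strand information would not separate these genes, and the sources used here do not say how the authors' counting treated reads in shared exons. None of CPNE2 (chr16:57092537-57148367, plus strand), CPNE3 (chr8:86514427-86561498, plus), CPNE7 (chr16:89575768-89597246, plus) and CPNE8 (chr12:38646822-38907430, minus) shares an exonic base with another annotated gene.

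**Figure D1:**
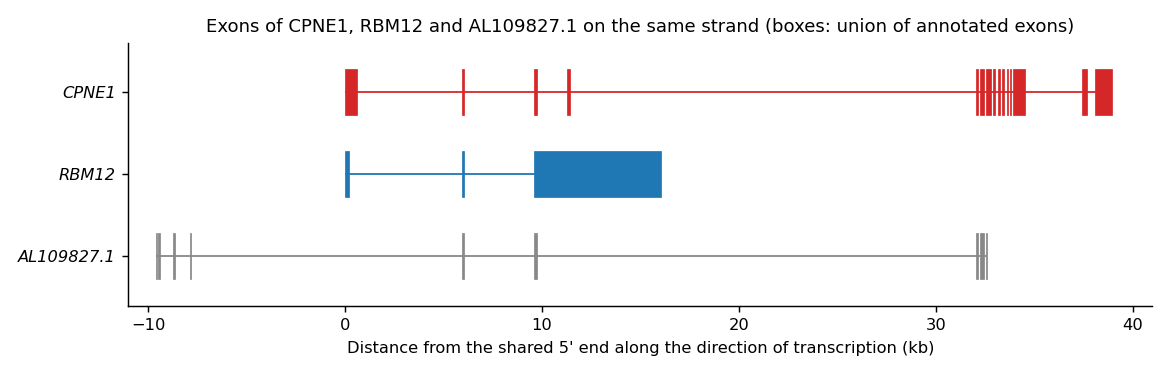
Annotated exons of CPNE1, RBM12 and AL109827.1, drawn to scale against the distance in kb from the 5′ end that CPNE1 and RBM12 share, with boxes for exons and lines for introns. The first exons line up, and 575 bases are common to CPNE1 and RBM12, part of them inside the last exon of RBM12. The last exon of CPNE1 is separate from RBM12.

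The RefSeq table of promoter windows (GRCh38.p14) matched 4 of the 6 genes, and gave CPNE1 and RBM12 1 identical window, which 325 of 27305 genes (1.19%) have with another gene. The bases directly upstream of the shared start are shown because the annotated starts of both genes lie beside them. They lie on the minus strand at chr20:35664957-35665150, and capitals mark CG dinucleotides.

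CPNE1 and RBM12 upstream window: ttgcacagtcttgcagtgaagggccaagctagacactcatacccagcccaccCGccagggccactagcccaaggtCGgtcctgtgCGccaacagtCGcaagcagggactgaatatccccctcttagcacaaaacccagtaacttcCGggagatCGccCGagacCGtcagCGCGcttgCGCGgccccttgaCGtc

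These 194 bases were 61.3% G or C, against a median of 57.2% over all windows of that length, and held 13 CG dinucleotides against a median of 7. GGGCGG, the core of a GC box, had 0 matches on either strand, and 33.8% of 35116 windows of that length held it. The CCAAT box had 0 matches as well, against 26.5% of the windows, and TATAAA 0, against 7.48%.

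The study predicted its miR-330-5p site in CPNE1 with ENCORI and RNA22, and the position of that site was not available here. It reported that miR-330-5p mimics lowered the signal of a luciferase reporter with the CPNE1 3′ UTR. With mutant miR-330-5p the effect was weaker, but for CPNE1 that difference was not significant. Shown with the miRNA is a match to its seed found by a search of the letters. RBM12 and the other members lack this match in their longest 3′ UTR. The mature miR-330-5p (RefSeq, GRCh38.p14, chr19:45639049-45639070, minus strand) has its seed, bases 2 to 8, in capitals. The match in CPNE1 lies in its longest annotated 3′ UTR at chr20:35626195-35626217 (GRCh38, minus strand). This stretch is in the last exon of CPNE1 and outside RBM12, and capitals mark the match to the seed. Whether it is the site that the study predicted was not checked.

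miR-330-5p: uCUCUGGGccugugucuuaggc
CPNE1 site: tcctcaatcctgtgtCCCAGAGg

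The word CCCAGAG occurred 1 time in the 210 bases of this 3′ UTR, and 0 times in the longest 3′ UTR of CPNE2, CPNE3, CPNE7, CPNE8 and RBM12, read on the transcript strand. RBM12 held 2 matches to the shorter word CCAGAG, for bases 2 to 7, in 3599 bases. Among tested genes with a 3′ UTR of like length, 4.90% held CCCAGAG for CPNE1 and 33.7% for RBM12, and 20.5% of all 12146 genes with a 3′ UTR did. A word match is a description of the letters, and binding was not measured here.

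CPNE1 had 515 and 403 CPM in the NC libraries, 380 and 382 in si-circ235-1, and 174 and 136 in si-circ235-2. Both si-circ235-2 libraries lay far below the other 4, while the si-circ235-1 libraries lay just below the lower NC library. The group means were 459 ± 79.0 CPM (SD, n = 2), 381 ± 1.78 and 155 ± 26.9. With si-circ235-2 the log2 fold change against NC was -1.57 (SE 0.21, 95% interval -2.04 to -1.10, fold 0.337, adjusted p = 0.00179 from edgeR). With si-circ235-1 it was -0.27 (SE 0.21, interval -0.73 to 0.19, adjusted p = 0.460 from edgeR), a difference within the spread between replicates. CPNE1 was lower with si-circ235-2 than with si-circ235-1 by a log2 difference of -1.30 (SE 0.21, interval -1.76 to -0.83, adjusted p = 0.00134 from edgeR). A fall of the size seen with si-circ235-2 thus lay outside the interval for si-circ235-1, and a small fall did not. In RNA from whole cultures, a lower level per cell and fewer cells with the transcript cannot be told apart.

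RBM12 had 83.8 and 96.3 CPM in NC, 86.7 and 81.1 in si-circ235-1, and 116 and 108 in si-circ235-2. The highest libraries were both of si-circ235-2, the condition in which CPNE1 was lowest, and the NC and si-circ235-1 libraries overlapped. Its log2 fold change was -0.10 with si-circ235-1 (interval -0.49 to 0.28, adjusted p = 0.764 from edgeR) and 0.31 with si-circ235-2 (interval -0.07 to 0.70, adjusted p = 0.195 from edgeR). Against si-circ235-1, the difference with si-circ235-2 was 0.42 (interval 0.03 to 0.80, adjusted p = 0.0813 from edgeR). RBM12 was not called in these comparisons, and its interval with si-circ235-2 did not reach the fall of CPNE1. The sign of the change with si-circ235-2 depended on the scaling, with 0.56 (adjusted p = 0.0481 from edgeR) on library totals alone and -0.05 (adjusted p = 0.877 from edgeR) with the dependence on transcript length and GC content fitted and taken out of each library. Between the siRNAs RBM12 was called higher with si-circ235-2 without TMM factors (0.75, adjusted p = 0.0108 from edgeR) and in a fit of these 2 conditions alone (0.44, adjusted p = 0.0380 from edgeR).

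The ratio of CPNE1 counts to RBM12 counts within a library does not depend on the scaling of that library as a whole. It was not corrected for transcript length or GC content, in which the genes differ, as described below. It was 6.15 and 4.19 in NC, 4.38 and 4.71 in si-circ235-1, and 1.49 and 1.26 in si-circ235-2. The si-circ235-2 ratios lay below all the others, and the si-circ235-1 ratios lay between those of the NC libraries. Means were 5.17 ± 1.39 (SD, n = 2), 4.55 ± 0.234 and 1.38 ± 0.162. On the log2 scale the ratio changed by -1.88 with si-circ235-2 (two-sided exact permutation p = 0.333, the smallest that 2 libraries against 2 allow) and by -0.16 with si-circ235-1 (exact permutation p = 1). With the counts of both genes added into 1 feature, as a read counted to either gene would be, the fall with si-circ235-2 was -1.04 (adjusted p = 0.00465 from edgeR).

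**Figure D2:**
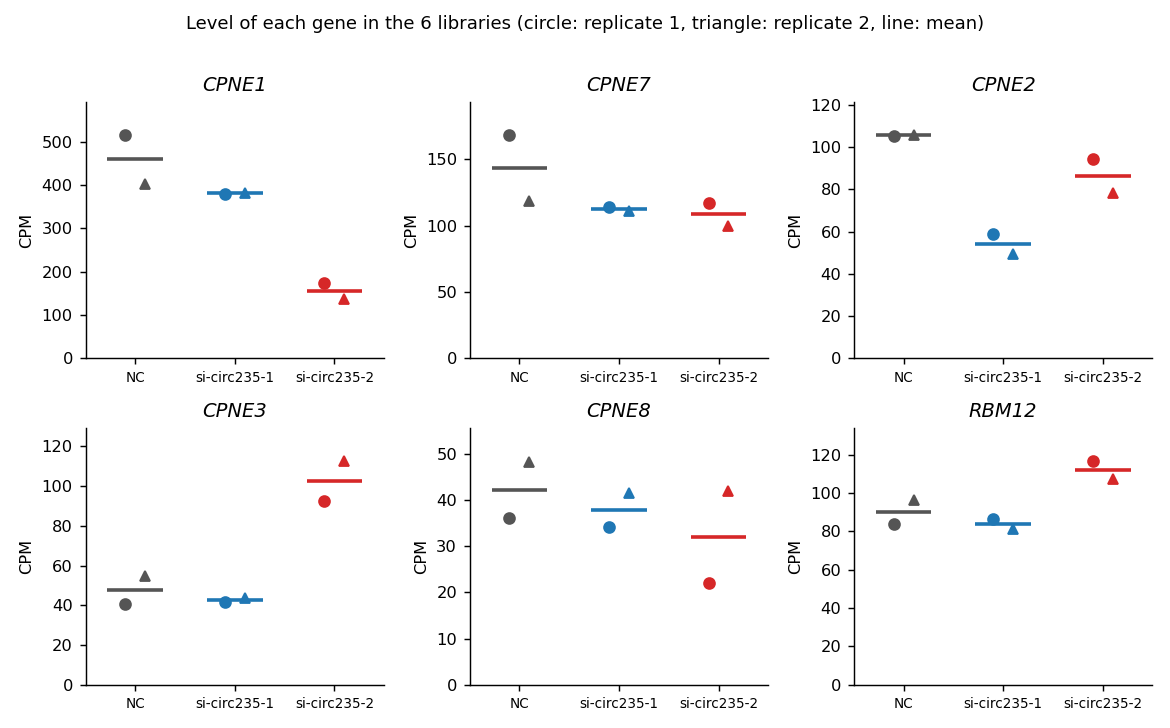
Level in CPM (vertical axes, from 0, each gene on its own scale) of the 6 genes in the 2 libraries of each condition, with a line at the mean. CPNE1 was at 136 to 174 CPM in si-circ235-2 against 380 and more elsewhere, CPNE3 was higher in si-circ235-2, CPNE2 was lower in si-circ235-1, and RBM12 did not follow CPNE1.

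Fold changes varied with annotated transcript length under si-circ235-2, and with base composition under both siRNAs. Over 14386 tested genes with a known length, the log2 fold change with si-circ235-2 correlated with the length of the longest transcript at a Spearman rho of 0.44, and with si-circ235-1 at 0.04, values given as a description since genes of the same libraries are not independent. With the G and C content of that transcript, rho was -0.22 under si-circ235-2 against -0.26 under si-circ235-1. The median log2 fold change with si-circ235-2 was -0.48 for the 4930 genes whose longest transcript is under 2500 bases and 0.50 for the 2449 of 6000 bases or more. The longest CPNE1 transcript has 2147 bases, and that of RBM12 has 6662, so these genes lie on opposite sides of that trend. With that trend taken out of each library, CPNE1 was still called lower with si-circ235-2 (-1.27, adjusted p = 0.00325 from edgeR).

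CPNE3 (ENSG00000085719), the partner of ERBB2 and RACK1, moved in the opposite direction to CPNE1 under the same siRNA. It had 40.7 and 54.5 CPM in NC, 41.4 and 43.5 in si-circ235-1, and 92.5 and 112 in si-circ235-2. Both si-circ235-2 libraries were above all the others, and the si-circ235-1 libraries lay inside the NC range. The log2 fold change with si-circ235-2 was 1.11 (SE 0.20, interval 0.65 to 1.56, adjusted p = 0.00405 from edgeR), and with si-circ235-1 it was -0.16 (interval -0.61 to 0.29, adjusted p = 0.667 from edgeR). The siRNAs differed by 1.27 (interval 0.82 to 1.72, adjusted p = 0.00133 from edgeR). The call against NC was lost without NC replicate 1 (0.90, adjusted p = 0.0541 from edgeR). The longest CPNE3 transcript has 4865 bases and 38.1% G or C, and with the length and GC trend taken out its fold change was 1.06 (adjusted p = 0.00369 from edgeR).

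CPNE2 (ENSG00000140848) was the copine called lower with si-circ235-1. Its level was 105 and 106 CPM in NC, 59.1 and 49.6 in si-circ235-1, and 94.3 and 78.2 in si-circ235-2. The conditions did not overlap, with si-circ235-1 lowest and si-circ235-2 between. The log2 fold change was -0.96 with si-circ235-1 (SE 0.19, interval -1.37 to -0.55, adjusted p = 0.0191 from edgeR) and -0.29 with si-circ235-2 (interval -0.70 to 0.12, adjusted p = 0.253 from edgeR). With si-circ235-2 CPNE2 was higher than with si-circ235-1 by 0.67 (interval 0.26 to 1.08, adjusted p = 0.0164 from edgeR). The si-circ235-1 call was lost whichever NC or si-circ235-1 library was left out, with adjusted p of 0.0836 and 0.0908 for NC replicates 1 and 2, and 0.0502 and 0.199 for si-circ235-1 replicates 1 and 2 (edgeR), at fold changes of -1.09 to -0.83. The difference between the siRNAs was no longer called when si-circ235-1 replicate 2 was left out (0.54, edgeR adjusted p = 0.129), nor when si-circ235-2 replicate 1 was (0.52, edgeR adjusted p = 0.126). The summed markers of other cell types were higher in the same si-circ235-1 libraries, and their part in the result was not tested.

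CPNE7 (ENSG00000178773) had 168 and 119 CPM in NC, 114 and 111 in si-circ235-1, and 117 and 99.9 in si-circ235-2. NC replicate 1 stood above the other 5 libraries, which lay close together. The log2 fold change was -0.35 with si-circ235-1 (interval -0.80 to 0.10, adjusted p = 0.318 from edgeR) and -0.40 with si-circ235-2 (interval -0.85 to 0.05, adjusted p = 0.155 from edgeR). CPNE7 was not called in either. Without NC replicate 1 the values were -0.08 and -0.14, and with the length and GC trend taken out the value with si-circ235-2 was 0.21.

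CPNE8 (ENSG00000139117) had 36.0 and 48.3 CPM in NC, 34.1 and 41.6 in si-circ235-1, and 22.0 and 42.1 in si-circ235-2. The libraries of the 3 conditions overlapped, and those of si-circ235-2 stood furthest apart. The log2 fold change was -0.16 with si-circ235-1 (interval -0.80 to 0.49, adjusted p = 0.786 from edgeR) and -0.39 with si-circ235-2 (interval -1.04 to 0.25, adjusted p = 0.327 from edgeR). A single library decided the call for CPNE8, which was called lower with si-circ235-2 once replicate 2 of that condition was left out (-0.94, edgeR adjusted p = 0.0194), also against si-circ235-1 (-0.78, adjusted p = 0.0379 from edgeR).

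**Figure D3:**
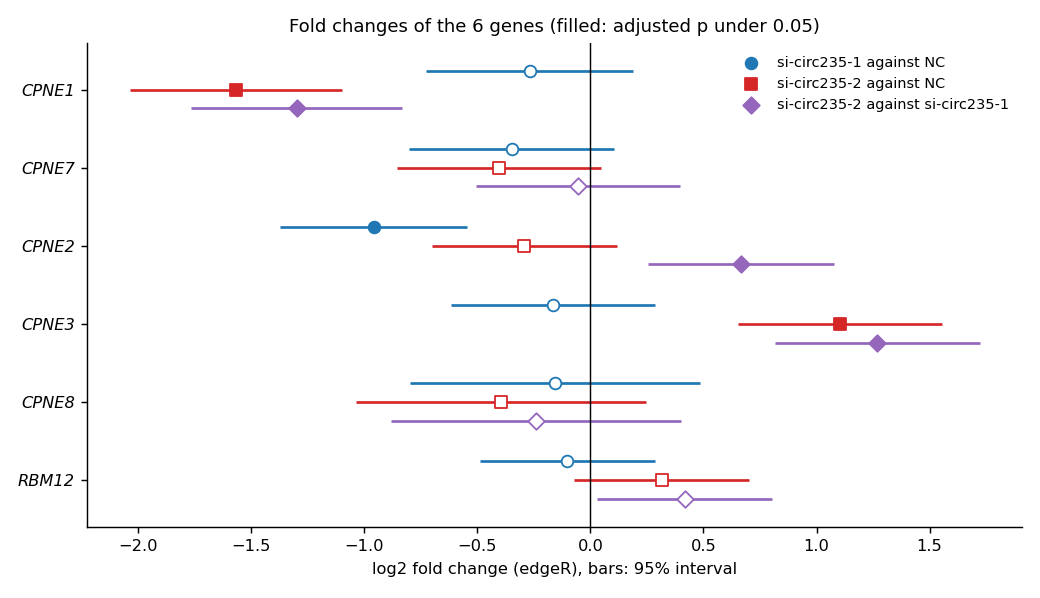
log2 fold change of the 6 genes from edgeR (horizontal axis) with its 95% interval (bars), for each siRNA against NC and for si-circ235-2 against si-circ235-1, with filled symbols where the adjusted p is under 0.05. The CPNE1 interval with si-circ235-2, -2.04 to -1.10, lies apart from the one with si-circ235-1, -0.73 to 0.19, and from that of RBM12 with si-circ235-2, -0.07 to 0.70.

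With si-circ235-1, 0 of the 6 genes were called higher, where 2.24% of all tested genes were, and 1 was called lower, where 3.64% were. With si-circ235-2, 1 was called higher and 1 lower, against 15.7% of all tested genes called higher and 15.7% called lower. Between the siRNAs, 2 were higher and 1 lower with si-circ235-2, against 21.1% called higher and 18.6% called lower. The median log2 fold change of the 6 genes was -0.22, -0.34 and 0.18 in these comparisons, and that of all tested genes was -0.03, -0.004 and 0.04. The comparisons against NC share the NC libraries. Such counts are not a result about the members as a group.

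Per kb of exon, with the exons of all annotated transcripts merged, CPNE1 was the most abundant copine transcript in NC. Its level was 127 ± 21.9 CPM per kb (SD, n = 2), followed by CPNE7 at 47.1 ± 11.5, CPNE2 at 13.6 ± 0.0349, CPNE8 at 8.15 ± 1.68 and CPNE3 at 7.06 ± 1.45. CPNE8 and CPNE3 overlapped between libraries, while the other neighbors in this order did not. RBM12, at 13.4 ± 1.32 CPM per kb, overlapped CPNE2. In si-circ235-2 CPNE1 still ranked first in both libraries, with a narrower lead, at 48.2 and 37.7 CPM per kb for CPNE1 and 38.4 and 32.8 for CPNE7. These ranges overlapped. On this scale CPNE3 came next among the copines, at 15.2 ± 2.08 CPM per kb, above CPNE2 at 11.1 ± 1.46 and CPNE8 at 6.19 ± 2.74. Merged exons are not the length of 1 transcript. CPNE2 has 7781 merged bases and a longest transcript of 3446, and CPNE3 has 6745 and 4865. The order and overlap of genes close in level thus depend on the length used. Dividing the same CPNE1 counts by only the 2678 exonic bases that no other gene shares gave 171 CPM per kb in NC and 57.8 in si-circ235-2. Both si-circ235-2 libraries (65.0 and 50.7) were then above both CPNE7 values. Reads were not recounted, so the rise follows from the shorter length. That length applies only if reads in shared exons were left out of the counts, which is not known.

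Of the summed copine level per kb, CPNE1 made up 63.6% and 61.5% in NC, 64.5% and 64.8% in si-circ235-1, and 41.3% and 35.8% in si-circ235-2. The share of CPNE3 was 2.69% and 4.45% in NC, 3.76% and 3.95% in si-circ235-1, and 11.7% and 15.8% in si-circ235-2. The makeup of the copine transcripts thus differed in si-circ235-2 and was close to that of NC in si-circ235-1, apart from CPNE2.

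**Figure D4:**
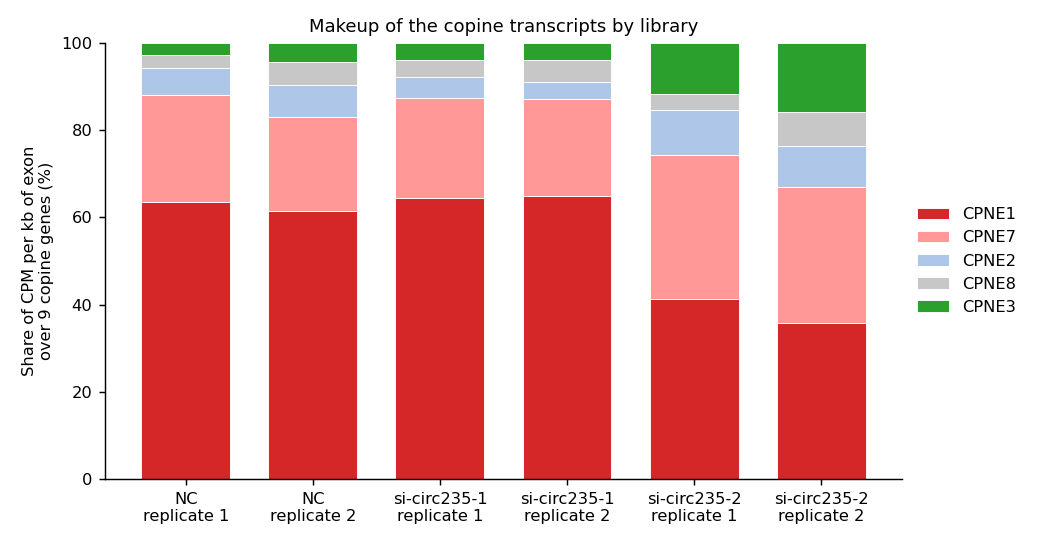
Share in percent (vertical axis, from 0) of each tested copine in the copine level per kb of exon, by library, with CPNE4, CPNE5, CPNE6 and CPNE9 too low to see. CPNE1 holds 61.5% or more in the NC and si-circ235-1 libraries and 41.3% or less in those of si-circ235-2, where the share of CPNE3 is widest.

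Around CPNE1, 8 other genes within 200 kb of its span passed the filter on low counts. With si-circ235-1, 0 of them were called, and with si-circ235-2, 0 were called higher and 2 lower (15.7% of all tested genes in each direction), with a median of -0.36. NFS1, a cysteine desulfurase of iron-sulfur cluster assembly, lies upstream on the same strand, with its 3′ end 3.10 kb from the shared 5′ end of CPNE1 and RBM12, and had a log2 fold change of 0.03 with si-circ235-2 (interval -0.37 to 0.43, adjusted p = 0.925 from edgeR). ROMO1, a small protein of the mitochondrial inner membrane, had 337 and 179 CPM in NC, 231 and 331 in si-circ235-1, and 102 and 74.2 in si-circ235-2. ROMO1 fell by 1.55 on the log2 scale with si-circ235-2 (SE 0.31, adjusted p = 0.00507 from edgeR), and that call was lost without NC replicate 1 (-1.03, adjusted p = 0.0589 from edgeR). ROMO1 was still called, at -0.66, after removal of the length and GC trend (edgeR adjusted p = 0.0362). ERGIC3, a cargo receptor between the endoplasmic reticulum and the Golgi, had 603 and 482 CPM in NC, 518 and 478 in si-circ235-1, and 352 and 287 in si-circ235-2. Its fall of -0.76 with si-circ235-2 (adjusted p = 0.0194 from edgeR) was no longer called without NC replicate 1 (edgeR adjusted p = 0.149) or si-circ235-2 replicate 2 (edgeR adjusted p = 0.134). SPAG4 and FER1L4, which lie between CPNE1 and ERGIC3, were not called but had negative values with intervals below 0, at -0.64 (interval -1.18 to -0.11, edgeR adjusted p = 0.0650) and -0.95 (interval -1.72 to -0.19, edgeR adjusted p = 0.0574). With si-circ235-2, 1 neighbor was called once si-circ235-2 replicate 2 was left out. Between the siRNAs, 0 neighbors were called higher and 3 lower with si-circ235-2 (21.1% and 18.6% of all tested genes), namely ROMO1, ERGIC3 and SPAG4. The SPAG4 difference was -1.25 (adjusted p = 0.00280 from edgeR) and was called in each of 13 alternatives, at -1.37 to -0.69, while that of ERGIC3 was called in 9 of 13.

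**Figure D5:**
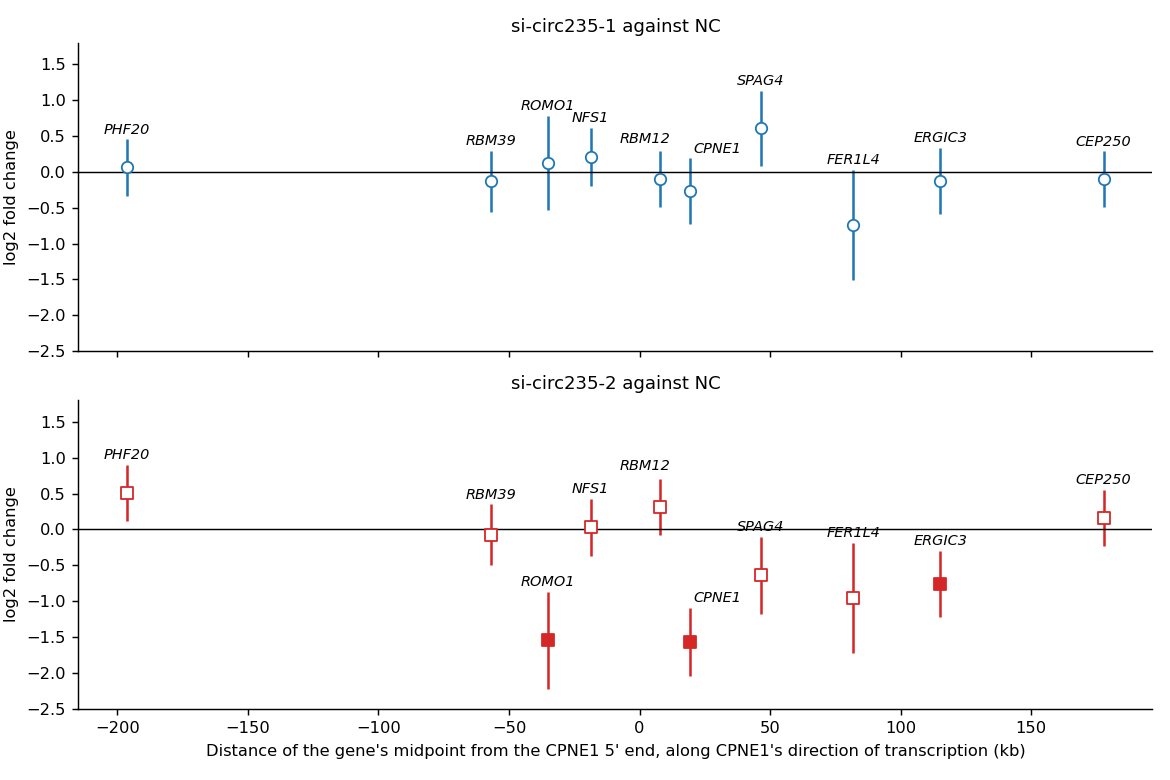
log2 fold change from edgeR with its 95% interval (vertical axes) of the 10 tested genes around CPNE1, against the distance of each gene's midpoint in kb from the 5′ end of CPNE1, for each siRNA against NC, with filled symbols where the adjusted p is under 0.05. With si-circ235-1 no symbol is filled, and with si-circ235-2 those of CPNE1, ROMO1 and ERGIC3 are, all below 0.

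The genes whose pattern over the 6 libraries was most like that of CPNE1, by the root mean square difference of centered log2 CPM among 10377 genes with a mean of at least 5 CPM, were CCDC74A (0.0773), AL590867.2 (0.0817), GPC1 (0.0829), ATP5MF (0.0910) and MCAT (0.0981). Those most like RBM12 were ASXL1 (0.0379), AAGAB (0.0390), RASSF2 (0.0412), RAB6B (0.0440) and RHNO1 (0.0481). No gene was on both lists, but lists of 5 among 10377 genes would rarely overlap in any case, so nothing is read from this.

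Annexins and some other proteins with C2 domains are further families that meet membranes in a calcium-dependent way. The counts of these and the following lists stand beside 2.24% of all tested genes called higher and 3.64% lower with si-circ235-1, and 15.7% in each direction with si-circ235-2. Of 11 tested annexins, which bind phospholipids by another fold, 1 was called higher with si-circ235-1 (ANXA7) and 1 lower with si-circ235-2 (ANXA2), with medians of 0.13 and -0.03. The ANXA2 call was lost whichever library was left out. The C2 domain list outside the copines held 20 tested genes, among them FER1L4, which is also counted as a neighbor of CPNE1. That list was written from general knowledge, and whether each gene encodes a protein with a calcium-binding C2 domain was not checked. With si-circ235-1, 2 were called higher (MCTP1 and TOLLIP). With si-circ235-2, 8 were called higher and 1 lower (SYTL1). Medians were 0.02 and 0.67. ESYT2, a tether between the endoplasmic reticulum and the plasma membrane, had 78.3 and 95.6 CPM in NC and 171 and 173 in si-circ235-2. The change of 0.98 on the log2 scale (adjusted p = 0.00433 from edgeR) was no longer called with the length and GC trend taken out (0.35, adjusted p = 0.0681 from edgeR) or without NC replicate 1 (adjusted p = 0.0556 from edgeR). With that trend taken out, 4 of the 20 were called, all higher.

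CPNE1 has been linked to glucose uptake through AKT, GLUT1 and HK2. Of 9 tested genes of that route, edgeR called 0 with si-circ235-1 (DESeq2 also 0, and 1 at an unadjusted p under 0.05, PDPK1) and 3 with si-circ235-2, HK2, PDPK1 and MTOR, all higher (15.7% of all tested genes were), while CPNE1 itself was lower. Medians were 0.02 and 0.31. SLC2A1, which encodes GLUT1, had 41.2 and 47.7 CPM in NC, 58.8 and 37.4 in si-circ235-1, and 55.5 and 54.2 in si-circ235-2, with a log2 fold change of 0.30 with si-circ235-2 (interval -0.20 to 0.81, adjusted p = 0.342 from edgeR). HK2, a hexokinase that traps glucose in the cell, had 11.4 and 10.8 CPM in NC and 17.5 and 18.2 in si-circ235-2. Its change of 0.69 (adjusted p = 0.0385 from edgeR) was lost with each library left out, at adjusted p of 0.0523 to 0.160 in edgeR, without the filter on low counts (0.0775), in a fit of the 2 conditions alone (0.0521) and with the length and GC trend taken out (0.444).

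Among 7 proteins described as partners of CPNE1 or CPNE3, 0 were called with si-circ235-1. With si-circ235-2, YWHAG, a 14-3-3 protein, was higher by 1.02 (adjusted p = 0.00327 from edgeR) and RACK1 was lower. RACK1 had 3698 and 2858 CPM in NC, 3466 and 3384 in si-circ235-1, and 1659 and 1330 in si-circ235-2, a fall of 1.13 on the log2 scale (adjusted p = 0.00822 from edgeR) that was not called without NC replicate 1 (adjusted p = 0.0880 from edgeR). ERBB2, the receptor bound by CPNE3, had a log2 fold change of 0.54 with si-circ235-2 (interval 0.05 to 1.04, adjusted p = 0.0885 from edgeR).

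Of 36 tested genes named RBM for RNA-binding motifs, the naming group of RBM12, 1 was called higher and 1 lower with si-circ235-1 (RBM15 and RBM15B). With si-circ235-2, 1 was higher (RBMXL1) and 6 were lower, with a median of -0.17. RBM42 was the most abundant of those 6. The calls with si-circ235-1 in the annexin, C2 domain and RBM lists all went to 0 without NC replicate 1 or si-circ235-1 replicate 2, and to 0 or 1 in each list without NC replicate 2 or si-circ235-1 replicate 1. Without NC replicate 1, the calls with si-circ235-2 fell to 0 annexins, 1 C2 domain gene, 0 AKT genes, 1 partner, 2 RBM genes and 0 neighbors of CPNE1.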

How the data were processed

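Per gene, the authors deposited raw read counts, as whole numbers that had not been normalized. The submitters' processing notes list FastQC, cutadapt, STAR and hg38, and the sources used here name neither counter nor annotation. Symbols, exons and coordinates came from GENCODE release 29 (GRCh38), which held 99.5% of the identifiers, and promoter and miRNA sequences from RefSeq. Conditions came from the labels, and columns were matched to libraries by name.

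These were tested with edgeR 4.0.16 in R 4.3.3 (genes kept by filterByExpr, TMM, 1 mean per condition over 6 libraries, quasi-likelihood test, Benjamini-Hochberg adjustment, threshold 0.05). CPM used TMM-scaled library sizes. The fit was tested on simulated data. With 2 libraries per condition, precision is set by the spread between libraries rather than by counting error. The members and lists were chosen with earlier results of these data known. The genes named are the members, the other copines by their counts, tested genes within 200 kb of CPNE1, the 5 genes most like CPNE1 and RBM12 in pattern, and, of lists of annexins, C2 domain, AKT, partner and RBM genes, abundant ones with SLC2A1 and HK2. Other list genes named as called were chosen after their values were seen. Markers of epithelial, mesenchymal and other cell types were named to describe the cells. Some genes of the AKT list are not reported here, and its counts are over the others. Alternatives were DESeq2 1.42.0, its size factors, no TMM factors, no filter, a trend over length and GC content removed (splines with 5 degrees of freedom), 2 conditions alone, a replicate block, CPNE1 and RBM12 counts added, and each library left out.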

Additional observations from a re-analysis of the deposited data

Results flagged for a closer look

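The effects of the siRNAs differed from each other for 3 of the 6 genes, by edgeR's test of si-circ235-2 against si-circ235-1. For CPNE1 the log2 effect of si-circ235-2 minus that of si-circ235-1 was -1.30 (adjusted p = 0.00134 from edgeR), with both si-circ235-2 libraries below both si-circ235-1 libraries. For CPNE3 it was 1.27 (adjusted p = 0.00133 from edgeR), in the opposite direction. For CPNE2 it was 0.67 (adjusted p = 0.0164 from edgeR), with the lower level under si-circ235-1. Groups of 2 libraries are too small to look for a library far from the others.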

How the results depend on the processing

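CPNE1 kept its direction and its side of the threshold in all 14 alternatives of each comparison, at -1.76 to -1.04 under si-circ235-2, -0.40 to -0.08 under si-circ235-1 and -1.49 to -0.80 between the siRNAs. The ends of -1.04 and -0.80 are values of the CPNE1 and RBM12 counts added, not of CPNE1 alone. Without TMM factors the median of all genes moved to -0.11, 0.25 and 0.37, and CPNE1 was at -1.30 under si-circ235-2. RBM12 changed with the scaling. Under si-circ235-2 it was 0.56 without TMM factors (now called), -0.045 with the length and GC trend removed and -1.04 with the CPNE1 counts added to its own. Between the siRNAs it was 0.75 without TMM factors and 0.44 with 2 conditions alone (both called), and -0.80 with the counts added. The reversal with added counts follows from CPNE1 supplying most of the sum. Under si-circ235-1 RBM12 was 0.039 without NC replicate 2, and its values with 1 library left out ran from -0.20 to 0.039. With the length and GC trend removed CPNE7 was 0.21 under si-circ235-2, and between the siRNAs CPNE7 was 0.27 and CPNE8 0.10. Without TMM factors, between the siRNAs, they were 0.28 and 0.12. With single libraries left out, CPNE3 ran from -0.36 to 0.10 and CPNE8 from -0.35 to 0.11 under si-circ235-1, and CPNE7 from -0.17 to 0.058 and CPNE8 from -0.78 to 0.15 between the siRNAs. The cause of these changes was not tested. The 847 genes called under si-circ235-1 became 1519 in DESeq2, 1678 without the filter, 1894 with the trend removed and 1642 with 2 conditions alone, and 0 to 1482 with 1 library left out (0 without si-circ235-1 replicate 2). The 4530 under si-circ235-2 became 769 to 4240 (769 without NC replicate 1), and the 5725 between the siRNAs 2817 to 5558. The labels do not say whether same-numbered replicates were handled together, and their deviations from the group means correlated at -0.09, 0.15 and 0.14. With the replicate block 937, 4750 and 6043 genes were called, with no change in the calls of the 6 members. Without TMM factors the splits of higher and lower calls were 179 and 529, 3173 and 1294, and 4534 and 1496. With 2 libraries per condition, the printed intervals give the precision of each change.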
